A study of Mus musculus with 4 samples.

Results

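Giant ubiquitin ligases are very large enzymes that attach ubiquitin to other proteins, and their messages are among the longest that animal cells translate. The 8 genes described here, Huwe1, Herc1, Herc2, Trip12, Ubr4, Birc6, Mycbp2 and Rnf213, were chosen by name for their function and very long coding sequence, out of 55357 gene identifiers counted. All 8 were present and all 8 passed the filter on low counts, as did 17422 genes in all. The data are RNA sequencing libraries from testis cells of C57BL/6 mice aged 7 days, in 2 groups, with no genetic change given. The first group is 2 libraries of RNA precipitated with an antibody to DDX20 (DDX20 RIP), and the second is 2 libraries of input RNA, for which 10% of the total RNA was used. All cells were crosslinked with ultraviolet light before lysis. DDX20 (Gemin3) is a helicase of the SMN complex, the machinery that puts the Sm protein ring on spliceosomal small nuclear RNAs.

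Ubiquitin passes from an activating enzyme (E1) to a conjugating enzyme (E2) and then, with the help of a ligase (E3), to a substrate. HECT ligases first take the ubiquitin onto a cysteine of their own, near the C-terminal end, whereas RING-type ligases let the E2 hand it over directly. In the testis, Huwe1 is known to be needed for spermatogonia to differentiate, and mice with mutations in Herc2 are runty, jerky and sterile.

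The labels name the antibody of the RIP libraries with catalogue numbers that differ in 1 character, and no precipitation with a control antibody was used here. A higher level in RIP therefore means a larger share of the precipitated than of the input RNA, and what part of it reflects binding by DDX20 was not tested. The libraries are not said to come from separate animals or lysates, so the p-values cover only the spread between libraries, possibly a technical one. Libraries held 37927689 to 38458014 counts in RIP and 21416567 to 21913977 in input. The 8 genes are measured far above counting noise, the fewest counts being 1801, for Herc1 in an input library. Fewer cells of a type and less RNA per cell cannot be told apart in such bulk samples. A marker gene lower in RIP had a smaller share of the precipitated than of the input RNA, which is no count of cells. Marker genes of testis cells were present, with none of the 38 markers at 0, and 30 of the 38 were called lower in RIP. Over all genes tested 38.6% were lower, and 54.0% of those under 1500 coding nt other than the 8. Called higher were Wt1 (log2 fold change 0.70) and Gata4 (0.26) of Sertoli cells. Zbtb16 (0.38) and Sall4 (0.39) of germ cells and Pdgfra (0.35) of stromal cells were also called higher. Summed levels ran from 2219 to 2221 CPM (a gene's counts scaled to the library total, with TMM factors) in RIP, against 3677 to 3711 CPM in input, for 8 Sertoli cell genes. Clu, of the Sertoli cell genes, alone averaged 1299 CPM in RIP and 2069 CPM in input. For 8 germ cell genes the sums ran from 232.0 to 235.8 CPM in RIP, against 557.3 to 563.6 CPM in input. For 5 Leydig cell genes they ran from 145.5 to 148.6 CPM in RIP, against 311.6 to 321.1 CPM in input. For stromal and myoid genes, 5 in all, the sums ran from 881.8 to 896.6 CPM in RIP, against 1268 to 1285 CPM in input. Endothelial, macrophage and red blood cell genes, 4 each, were all lower in RIP. With the coding length offset described below, median log2 fold changes of the marker lists ran from -1.24 (endothelial) to -0.79 (stromal and myoid). The median of all genes with that offset was 0.135. The part of cell makeup in the results below was not tested. Ddx20 itself had 77.6 and 83.2 CPM in RIP, against 41.4 and 41.2 CPM in input.

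All 8 giant ligase messages were over-represented in the DDX20 precipitate, by 2.60- to 5.29-fold. Together they held 0.584% and 0.569% of all counts in the RIP libraries, against 0.170% and 0.169% in the input libraries. This measure scales each library by its total counts alone, without TMM factors. By the edgeR quasi-likelihood test, with p adjusted by Benjamini-Hochberg over 17422 genes, all 8 were called higher at an adjusted p of at most 2.87e-31 and all 8 were at least 2-fold higher. Over all genes tested, 38.7% were called higher in RIP, 38.6% lower, and 17.1% at least 2-fold higher. The median log2 fold change of RIP over input was 2.22 for the 8 genes and -0.05 for all genes tested.

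The HECT ligases are Huwe1, Herc1, Herc2 and Trip12. A short stretch of each coding sequence is shown because it encodes what the 4 share, the cysteine that carries ubiquitin; capitals mark its codon, with 24 bases on either side, 5′ to 3′ on the coding strand (GENCODE M21 transcripts, GRCm38). The cysteine was located as that of the only threonine-cysteine pair in the last 110 residues translated from each transcript.
Huwe1: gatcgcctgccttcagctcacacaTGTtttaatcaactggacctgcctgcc
Herc1: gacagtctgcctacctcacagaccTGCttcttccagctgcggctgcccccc
Herc2: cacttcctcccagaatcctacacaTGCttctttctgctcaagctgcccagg
Trip12: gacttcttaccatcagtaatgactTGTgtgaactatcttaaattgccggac
They lie at chrX:151933105-151934305 (plus strand, across an intron), chr9:66508145-66508195 (plus), chr7:56230887-56230937 (plus) and chr1:84724696-84724746 (minus). Over the 51 bases, Huwe1 and Herc1 were identical at 31, Herc1 and Herc2 at 30, and Trip12 and either Herc gene at 23. Herc1 and Herc2 use the codon TGC, and Huwe1 and Trip12 use TGT.

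Huwe1 encodes a ligase for substrates that include p53, MCL1 and MYC family proteins. It is identifier ENSMUSG00000025261.19, on chromosome X from 151800807 to 151935417, with 83 exons and 13134 coding nt in the transcript chosen. Huwe1 had 1453 and 1405 CPM in the RIP libraries, against 306.2 and 302.5 CPM in the input libraries, the highest RIP level of the 8 in CPM. The groups did not overlap, the lower RIP library standing more than 4 times above the higher input library, and over all genes 42.7% were higher in RIP without overlap. The log2 fold change was 2.23 ± 0.0255 (SE, n = 2 libraries per group).

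Herc1 and Herc2 join a HECT domain to RCC1-like repeats. Herc1, which is mutated in the tambaleante mouse with Purkinje cell loss, is identifier ENSMUSG00000038664.17 and lies on chromosome 9 from 66350450 to 66508775. It had 347.6 and 334.8 CPM in RIP, against 73.0 and 74.7 CPM in input, a log2 fold change of 2.21 ± 0.0360. Herc2, a ligase of the DNA damage response, is ENSMUSG00000030451.17 and lies on chromosome 7 from 56050196 to 56231800. It had 519.5 and 502.3 CPM in RIP, against 111.3 and 108.4 CPM in input, a log2 fold change of 2.22 ± 0.0318. Both Herc genes were thus higher in each RIP library than in either input library, and by nearly the same ratio, although Herc2 had the higher CPM per kb in every library. Genes on the opposite strand cover 2.53% (Gm28379) and 1.15% (Fbxl22) of the exonic bases of Herc1, and reads from them cannot be told apart without strand.

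Trip12, which ubiquitinates the tumour suppressor ARF and the damage-response ligase RNF168, stood apart. It is ENSMUSG00000026219.15, lies on chromosome 1 from 84721189 to 84840516 and has the shortest coding sequence of the 8, at 6075 nt, as well as the longest 3′ untranslated region, at 3432 nt. Trip12 had 872.0 and 860.3 CPM in RIP, against 338.5 and 326.5 CPM in input. Its input level was the highest of the 8 and its increase the smallest, a log2 fold change of 1.38 ± 0.0261, or 2.60-fold.

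Ubr4 binds destabilising N-terminal residues of proteins and is an N-recognin without a HECT domain. It is ENSMUSG00000066036.15 and lies on chromosome 4 from 139352609 to 139489588, with 106 exons and 15540 coding nt, the longest coding sequence of the 8. Ubr4 had 1201 and 1133 CPM in RIP, against 229.3 and 226.2 CPM in input, a log2 fold change of 2.36 ± 0.0283. Birc6, also known as BRUCE or Apollon, joins an E2-type domain to the domain of apoptosis inhibitors and acts as both E2 and E3. It is ENSMUSG00000024073.17 and lies on chromosome 17 from 74528295 to 74703356. Birc6 had 1247 and 1199 CPM in RIP, against 232.8 and 229.8 CPM in input. At 2.40 ± 0.0269 its log2 fold change was the largest of the 8. The antisense gene Gm26749 covers 2.37% of its exonic bases.

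Mycbp2 (also PHR1) is a ligase with a pair of catalytic cysteines, best known for its part in axon growth, where it works with the F-box protein FBXO45. It is ENSMUSG00000033004.17 and lies on chromosome 14 from 103113411 to 103346814. Mycbp2 had 352.9 and 337.9 CPM in RIP, against 86.9 and 91.0 CPM in input, a log2 fold change of 1.96 ± 0.0357. Its increase was larger than that of Trip12 and smaller than that of each of the other 6. Rnf213, a ligase with an AAA+ ATPase core whose human gene is linked to moyamoya disease, is ENSMUSG00000070327.15 and lies on chromosome 11 from 119393100 to 119487418. It had 641.9 and 608.2 CPM in RIP, against 130.3 and 134.8 CPM in input, a log2 fold change of 2.24 ± 0.0316. Of its exonic bases 8.74% are covered by the antisense transcript A930037H05Rik, the largest such overlap among the 8.

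**Figure D1:**
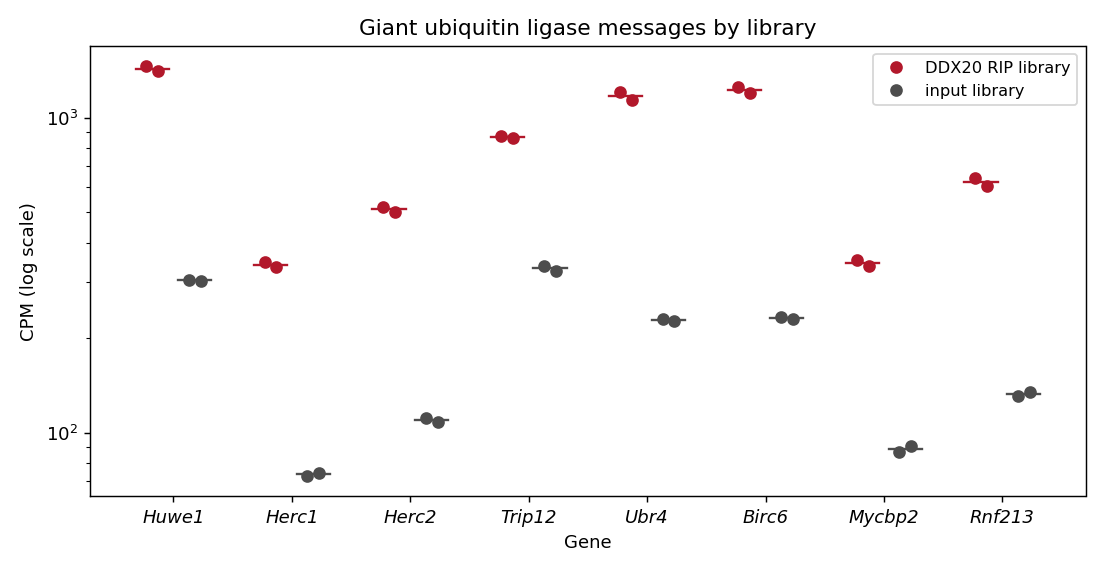
CPM (log scale) of the 8 giant ligase genes in each library, with 2 DDX20 RIP libraries in red left of 2 input libraries in grey; short bars are group means. In every gene both RIP libraries lie above both input libraries, with the smallest gap in Trip12 (872.0 and 860.3 against 338.5 and 326.5 CPM).

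The 8 fold changes fell into few levels. Over the 4 pairings of a RIP with an input library, log2 ratios ran from 2.36 to 2.44 for Birc6 and from 2.31 to 2.41 for Ubr4, which overlap. Next came Rnf213 (2.17 to 2.30), Huwe1 (2.20 to 2.26), Herc2 (2.17 to 2.26) and Herc1 (2.16 to 2.25), whose ranges all overlap with their neighbours in that order. Ubr4 and Rnf213 did not overlap, at 2.306 against 2.300, but by less than the width of either range. Mycbp2 (1.89 to 2.02) and Trip12 (1.35 to 1.42) overlapped no other gene. Among all genes tested, the fold change of Trip12 stood at the 91.5th percentile and the other 7 stood between the 98.2nd (Mycbp2) and the 99.7th (Birc6).

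Levels of different genes can be compared only per length, and per kb of transcript the order of the 8 differed between the groups. That order depends on the transcript chosen, because reads were counted per gene and the merged exons of a gene are longer. They hold 23507 nt for Huwe1, 25772 nt for Birc6, 17997 nt for Ubr4 and 16601 nt for Trip12. The order does not hold per kb of merged exons. There Ubr4 (mean of 1167 CPM in RIP) stands above Huwe1 (1429 CPM), Trip12 and Birc6 in RIP, and Trip12 stays highest in input. Per kb of the chosen transcript, used from here on, the highest in RIP was Huwe1, at 99.7 and 96.4 CPM per kb. Trip12 followed at 90.5 and 89.3. In input the highest was Trip12, at 35.1 and 33.9 CPM per kb, and Huwe1 followed with a mean of 20.9. These neighbours did not overlap in either group, so Huwe1 and Trip12 changed places. Birc6 came next in both groups, at 79.1 and 76.0 CPM per kb in RIP and 14.8 and 14.6 in input. Ubr4, Rnf213 and Herc2 followed in both groups, at means of 73.3, 37.4 and 33.5 CPM per kb in RIP and 14.3, 7.93 and 7.20 in input. Mycbp2 and Herc1 were the lowest. Their ranges overlapped in RIP (22.2 to 23.2 and 22.1 to 22.9 CPM per kb) and were apart in input (5.71 to 5.98 and 4.82 to 4.93).

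**Figure D2:**
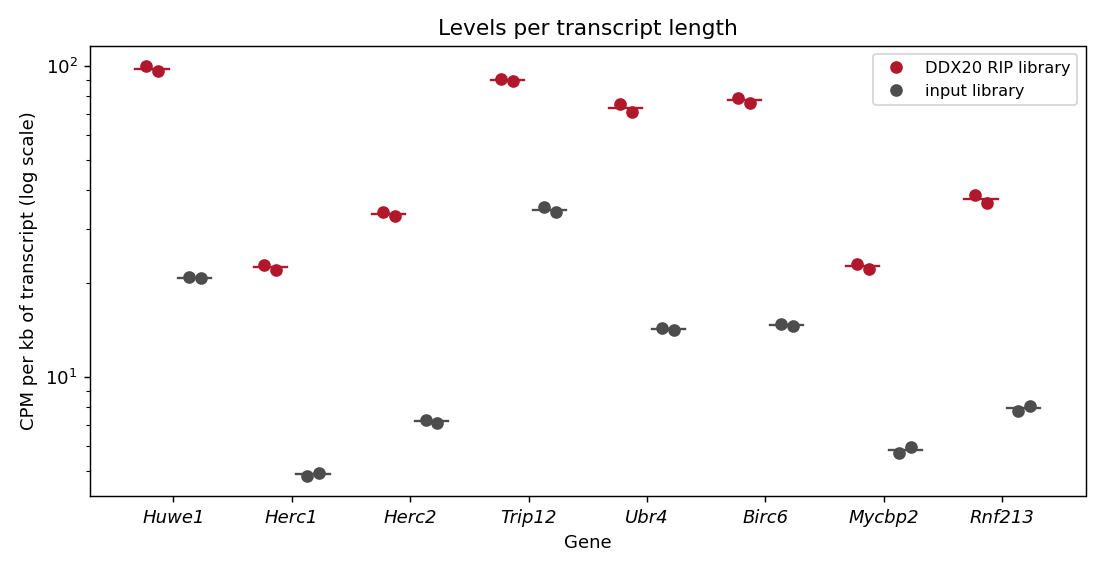
CPM per kb of the chosen transcript (log scale) for the 8 genes, with DDX20 RIP libraries in red left of input libraries in grey; short bars are group means. Huwe1 is highest in RIP (99.7 and 96.4) and Trip12 is highest in input (35.1 and 33.9).

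Coding length went with the fold change over most of its range, but the class from 12000 nt stood below the class before it. Across the 14680 protein-coding genes tested, coding length and log2 fold change had a Spearman rho of 0.637, a description across genes of the same 4 libraries. Of genes other than the 8 with a coding sequence under 1500 nt, 23.2% were higher in RIP (median log2 fold change -0.42). The share was 64.2% from 1500 to 3000 nt (0.56), 80.5% from 3000 to 6000 nt (1.24), 85.9% from 6000 to 12000 nt (1.65) and 75.0% from 12000 nt (1.48, n = 52). Trip12, at 1.38, lay below the median of its class, and each of the other 7 lay above the median of theirs. Within the 8, coding length and log2 fold change had a Pearson r of 0.921 and a Spearman rho of 0.762 (n = 8 genes of the same libraries). Without Trip12 the r was 0.331 and the rho 0.643 (n = 7), so the r rested on that gene. For merged exon length within the 8, the r was 0.398 and the rho 0.238.

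Other genes with at least 12000 coding nt were set beside the 7 giant ligases of that length, whose log2 fold changes had a median of 2.23 and ran from 1.96 to 2.40. The 52 others ran from -1.60 to 2.87, with 39 higher and 1 lower, so the 7 lay inside their range. Of these, 11 had a mean CPM over all 4 libraries of at least 207.5, that of Herc1, the lowest of the 8. Those 11, among them the cytoskeletal linkers Dst, Plec and Macf1, the dynein heavy chain Dync1h1 and the receptor Lrp1, had a median of 2.28 and ran from 1.93 to 2.60. The other 41 had a median of 1.22 and ran from -1.60 to 2.87, a range that holds those of the 11 and of the 7, and 21 of the 41 were at least 2-fold higher. The mean CPM includes the RIP libraries, so that threshold favours genes raised in RIP, and nothing is read from the difference between the 11 and the 41. The split was made, and the names in it chosen, after seeing the data.

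**Figure D3:**
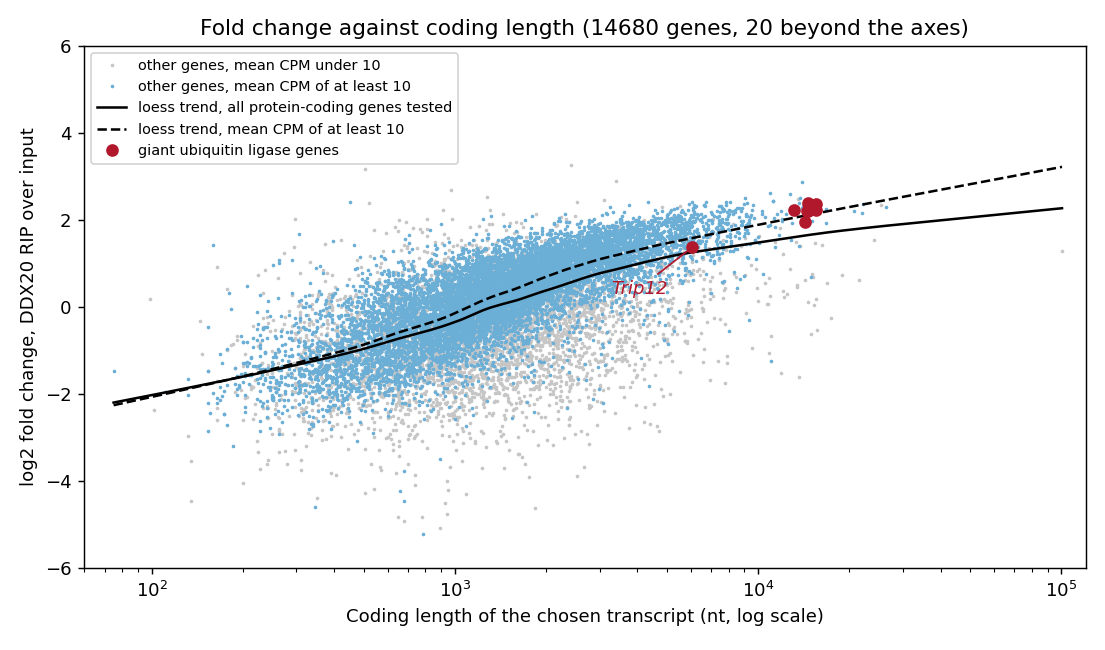
Log2 fold change of DDX20 RIP over input (y) against coding length in nt (x, log scale) for 14680 protein-coding genes, of which 20 lie beyond the axes; blue points average 10 CPM or more, grey points less, and red points are the 8 giant ligases. The solid and dashed lines are loess trends over all genes and over the blue genes. All 8 red points lie above the solid line, 7 at 13134 to 15540 nt and Trip12 at 6075 nt, and Trip12 and Mycbp2 lie below the dashed line.

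With an offset for the loess trend on coding length, the 8 stood at 0.56 (median log2 fold change) and ran from 0.12 for Trip12 to 0.75 for Birc6. The median of all genes in that fit was 0.135, not 0. All 8 were still called higher by edgeR, against 44.7% called higher and 29.1% lower of the 14680 genes with a coding length, and none of the 8 was 2-fold higher. When that trend was fitted on the 9602 genes averaging 10 CPM or more, a choice made after seeing the data, the 8 stood at a median of 0.10. That mean also includes the RIP libraries, so the choice favours genes raised in RIP and can lift the trend. Above it stood 6 genes, with Birc6 at 0.29, Ubr4 at 0.21, Huwe1 at 0.18, Herc2 at 0.11, Herc1 at 0.09 and Rnf213 at 0.09. They were called higher by edgeR, the largest adjusted p being 0.0208 for Herc1, against 32.2% of all genes in that fit. Mycbp2 (-0.14, adjusted p = 0.000383) and Trip12 (-0.21, adjusted p = 2.82e-10) were called lower, against 41.3% of all genes. The median of all genes in that fit was itself -0.11, so Mycbp2 stood near it. These edgeR tests take the trend as known, although the 8 genes are among those it was fitted on. Their p-values thus cover only the spread between libraries, not the fit of the trend or the scatter of genes around it. Only 59 genes tested have 12000 coding nt or more, so the trend over all genes rests on few there. After that offset the 7 giant ligases of this length had a median of 0.565. The 11 other genes at least as abundant had 0.566, and the 41 less abundant had -0.712. With the trend of abundant genes these medians were 0.106, 0.094 and -1.15. The threshold that parts the 11 from the 41 favours genes raised in RIP, so nothing is read from that difference. With an offset for merged exon length, all 8 were called higher (against 40.4% of genes), from 0.47 for Trip12 to 1.41 for Ubr4. Whether length, abundance or another property of the RNA sets the increase was not tested.

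**Figure D4:**
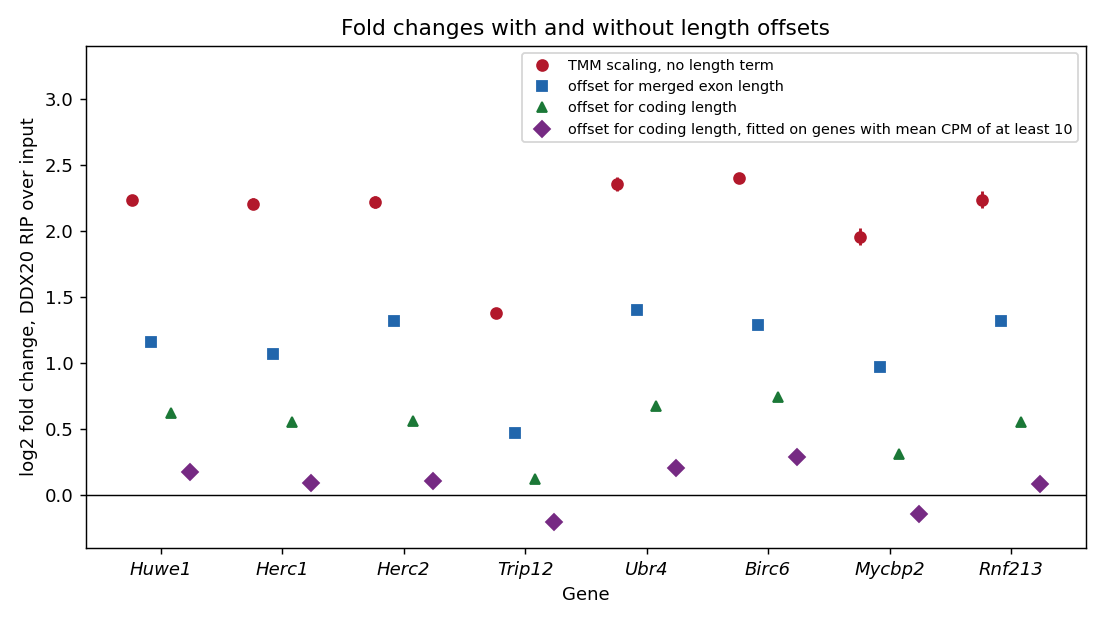
Log2 fold change of DDX20 RIP over input for each of the 8 genes with no length term (red, with lines for the range over the 4 library pairings) and with 3 length offsets. The values come down from between 1.38 and 2.40 in red to between -0.21 and 0.29 in purple, where Trip12 and Mycbp2 lie below 0.

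Among other genes of the ubiquitin system, the long ones were mostly higher in RIP and the short ones were mixed. Of 144 pathway genes tested, 90 were higher in RIP and 46 lower by edgeR (with total counts alone as the scaling, 72 and 60). Over all genes tested 38.7% were higher and 38.6% lower with TMM scaling and no length term. Those shares are to be set beside this count and those of each list below where no other setting is named. For all genes, total counts gave 4994 of 17422 higher and 8845 lower, and upper-quartile scaling gave 5022 and 8798. The coding length offset gave 44.7% higher and 29.1% lower. Of those with a coding sequence of at least 3000 nt, 31 of 32 were higher, and of the 112 shorter ones 59 were higher and 45 lower. Across the 144, coding length and log2 fold change had a Spearman rho of 0.834, against 0.637 across all 14680 protein-coding genes tested. Some genes stand in more than one list.

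Of the other HECT ligases, 21 of 22 tested were higher in RIP, with a median log2 fold change of 1.13. Nedd4, a ligase of membrane proteins with the highest mean CPM of them, averaged 2200 ± 11.4 CPM in RIP and 745 ± 3.71 CPM in input (SD, n = 2 each). Hectd4, picked here after its value was seen as the only other HECT gene with over 12000 coding nt, rose by 2.29 on the log2 scale, within the range of the giant members. Hecw2 was the 1 that fell, to 4.67 ± 0.418 CPM in RIP against 11.2 ± 1.88 CPM in input. The other UBR box proteins, relatives of Ubr4 in the N-degron pathway, were all 6 higher (median 2.11), also with each other scaling and each length offset, with Ubr2 at 2.26.

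Of the apoptosis inhibitors related to Birc6, Birc5 (survivin, 420 coding nt) fell by 0.18, whereas Xiap (0.12) and Birc2 (0.19) were called higher with TMM scaling and stood below 0 with total counts (-0.23 and -0.15). Xiap also lost its call without input replicate 1 (0.11), and Birc2 without input replicate 2 (0.14). Birc3, named here after its value was seen, stood at 0.62 (edgeR, adjusted p = 0.000388). Of 4 tested, 3 were higher and 1 lower with TMM scaling, and 0 were higher and 2 lower with total counts or upper-quartile scaling.

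The enzymes upstream of the ligases split. Of 8 E1-type genes 6 were higher and 1 lower (4 and 2 with total counts), with Uba1, the main ubiquitin-activating enzyme, at 1.37 and Uba2, of the SUMO pathway, at 1.10. Uba3, of the NEDD8 pathway, stood at -0.18 and lost its call without input replicate 1 (-0.14) or DDX20 RIP replicate 1 (-0.11). Of 31 E2 genes, which are short (median 549 coding nt), 9 were higher and 21 lower, with a median of -0.64 (4 and 23 with total counts). Cdc34, the E2 of cullin ligases, stood at -0.87 and lost its call with the exon length offset (-0.027), while Ube2h stood at 0.97 and Ube2z at 0.66. With the coding length offset the same list gave 18 higher and 5 lower.

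Of 15 cullin ligase genes 10 were higher and 5 lower, the 5 being the shortest (324 to 489 coding nt). With the coding length offset 10 were higher and 2 lower, and Skp1a stood at 0.23. The adaptor Ddb1 (1.41) and the exchange factor Cand1 (1.85) were higher, and the small adaptors Elob (-1.52) and Skp1a (-0.74) were lower. Of 32 deubiquitinases, which remove ubiquitin, 24 were higher and 5 lower (20 and 10 with total counts). Usp9x, with 7662 coding nt, averaged 1233 ± 43.5 CPM in RIP and 267.5 ± 3.46 CPM in input, and Usp34 rose by 1.85. The short Uchl1 (-0.86) and Uchl3 (-1.74) fell, and Uchl1 lost its call with the exon length offset (-0.046). Of the 4 ubiquitin genes 3 were lower and 1 higher (4 and 0 with total counts), with Rps27a at -1.50 and Ubb at -1.11, and their reads can be shared with pseudogenes.

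Messages of partners and substrates of the 8 did not move as one, with 11 of 23 higher and 9 lower (10 and 13 with total counts). With TMM scaling the counts are 47.8% and 39.1%, against 38.7% and 38.6% of all genes tested, so nothing particular to this list is read from them. Fbxo45, the partner of Mycbp2, rose by 0.83, whereas Kcmf1, whose protein works with UBR4, fell by 0.39. Tsc2, a substrate of the Mycbp2 ligase, rose by 1.88, and Map1lc3b, a substrate of Birc6, fell by 0.87. Mcl1, a substrate of Huwe1, stood at 0.16 with TMM scaling and -0.19 with total counts.

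**Figure D5:**
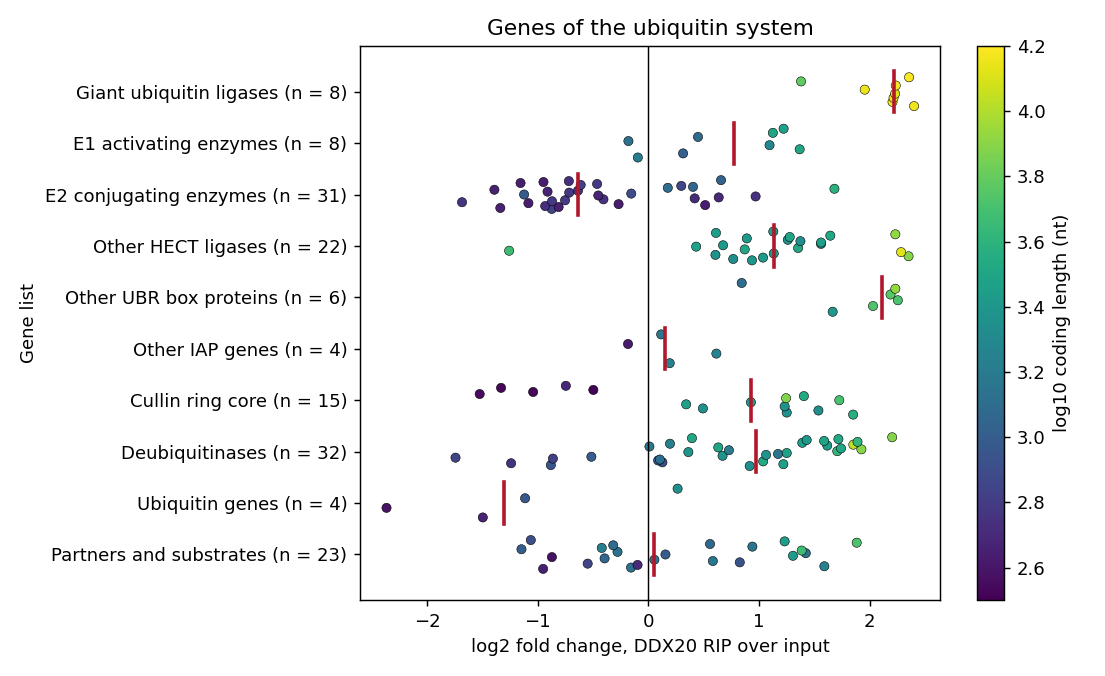
Log2 fold change of DDX20 RIP over input (x) for the tested genes of each list of the ubiquitin system (y); each point is a gene, coloured by log10 coding length in nt, and red bars are list medians. The giant ligases (median 2.22) and the other UBR box proteins (2.11) lie farthest right and the ubiquitin genes (-1.30) farthest left, and longer genes lie mostly to the right.

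The genes whose pattern was most like the mean of the 8 over the 4 libraries were Prkdc, Afdn, Celsr1, Hspg2 and Cltc, by Euclidean distance between centred log2 CPM among 9504 genes averaging 10 CPM or more. Their distances ran from 0.0206 for Prkdc to 0.0279 for Cltc, and their log2 fold changes from 2.12 to 2.15. With 2 conditions this likeness is little more than an equal fold change. Their coding lengths ran from 5025 nt in Cltc to 13149 nt in Hspg2.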

How the data were processed

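RNA immunoprecipitated with a DDX20 antibody and input RNA were measured by sequencing in 2 libraries each. The values the authors deposited are raw counts of reads per gene. The submitters' processing notes name GRCm38, STAR 2.7.2b, featureCounts, SAMtools, cutadapt 4.1 and Trimmomatic 0.36. The sources used here do not give the settings, the order or the annotation release. Between 65.4% and 67.4% of nonzero counts per library are even, which counting each mate separately would give, so precision may be lower than the counts imply; halved counts were an alternative. Symbols, lengths and coordinates come from GENCODE M21 (GRCm38), which names 52081 of 55357 identifiers (94.1%). Only 35 identifiers carry the same version there, so the counted gene models can differ. Coding and transcript lengths are those of the protein-coding transcript with the best APPRIS rank, then the longest coding sequence.

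Genes kept by filterByExpr were scaled by TMM and tested over all 4 libraries with edgeR 4.0.16 (robust quasi-likelihood) under R 4.3.3. P-values were adjusted by Benjamini-Hochberg over 17422 genes, with a threshold of 0.05. Standard errors are the fold change over the square root of F. The pipeline was also tested on data drawn with known changes. Alternatives were other scalings and filters, DESeq2 1.42.0, limma-voom 3.58.1, the replicate number as a block, each library left out, and loess (span 0.3) length offsets. The offset fitted on genes averaging 10 CPM or more was added after seeing the data. Members and gene lists were chosen with earlier results of these data known. Named genes are the 8 members, the 2 most abundant called genes of each list and direction, Fbxo45, Kcmf1, Ddx20 and the 5 genes most like the members; some genes that this rule names are not reported here. Groups and replicate numbers come from the sample titles.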

Additional observations from a re-analysis of the deposited data

How the results depend on the processing

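All 8 giant ligase genes were higher in RIP under each of the 17 alternatives but the coding length offset fitted on abundant genes, where 6 were higher and Trip12 (-0.21) and Mycbp2 (-0.14) turned lower. With that offset the median of all genes was -0.11. All 8 were at least 2-fold higher in the 14 alternatives with no length term, 6 with the exon length offset, and 0 with either coding length offset. Their median log2 fold change was 1.88 with upper-quartile scaling and 1.88 with total counts alone, which put the median of all genes at -0.39 and -0.40. It was 2.28 with no low-count filter, 2.10 with a filter at 1 CPM on average, 2.18 with halved counts, 1.23 with the exon length offset, 0.56 with the coding length offset and 0.10 with that offset fitted on abundant genes. Without 1 library it ran from 2.23 to 2.29.

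Against a 1.5-fold change 4210 genes were higher and 4426 lower, and 29 pathway genes were lower; with the coding length offset 4269 genes and 29 pathway genes were lower. Total counts gave 4994 genes higher and 8845 lower, upper-quartile scaling 5022 and 8798. Leaving out 1 library gave 6231 to 6569 genes higher and 5071 to 5815 lower. Signs turned with the coding length offset, or that offset fitted on abundant genes, for Birc5 (0.91, 0.84), Birc2 (-0.11, -0.40), Skp1a (0.23, 0.14) and Map1lc3b (0.31, 0.24), and with the abundant-gene offset alone for Xiap (-0.24) and Usp34 (-0.080). With upper-quartile scaling or total counts they turned for Xiap (-0.23, -0.23), Birc2 (-0.15, -0.15) and Mcl1 (-0.19, -0.19), and for Xiap with the filter at 1 CPM (-0.0047) and the exon length offset (-0.50). Calls, but not signs, were lost with the exon length offset for Cdc34 (-0.027), Uchl1 (-0.046) and Birc5 (-0.0047). The cause was not tested. The libraries share only replicate numbers: deviations of equal numbers had a correlation of 0.0078, and the replicate block gave 6734 genes higher and 6655 lower and all 8 members higher.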

Other observations

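Base composition and sequence were also described for the 8 transcripts. Their GC content ran from 43.6% in Trip12 to 54.5% in Ubr4, with a median of 47.8%, against 50.5% over all genes tested. The letters ATTTTTG, the core of the Sm site of small nuclear RNAs, were searched on the transcript strand only. They occurred in 6 of the 8 transcripts, with 2 copies each in Huwe1, Trip12 and Mycbp2, 1 each in Herc1, Herc2 and Rnf213, and none in Ubr4 and Birc6. Over all genes tested 27.0% of transcripts hold them, and of the 52 other genes with at least 12000 coding nt 63.5% do. The 2 genes without a copy had the largest fold changes of the 8, which was seen after the fact among 8 genes only. Whether the letters bear on the fold change was not tested, and nothing is read from this.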
